A study of Homo sapiens with 6 samples.

Results

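Satellite RNA of SW620 cells grown as a mouse xenograft was compared with satellite RNA of the same line in culture before xenografting, locus by locus. All 9566 satellite loci of the deposited table were taken as members, so none was chosen by its values, and 2 of the 6 libraries entered the comparison. SW620 is a human colon adenocarcinoma line. The xenograft library came from tumour tissue grown under the skin of a Nu/Nu mouse, an athymic strain that accepts human cells. The library of the culture before came from SW620 cells in 2D culture in RPMI1640 medium with 10% FBS. Total RNA of both was purified with TRIzol and sequenced as single molecules on the Helicos platform by its digital gene expression method, and no other agent or allele is named for either. The comparison addresses how satellite RNA differs when the line moves between the 2 environments. With 1 library a side there was no replicate spread to judge a difference by, and no p-value is given. The table lists satellite loci alone, so colon or mouse marker genes could not be checked, and how reads from mouse cells of the tumour were treated is not stated in the labels.

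Satellites are tandem repeats that fill the heterochromatin of human chromosomes. Alpha satellite (ALR/Alpha) is the repeat on which centromeres are built, and beta satellite (BSR/Beta), gamma satellites (GSAT, GSATII, GSATX), HSATII and its simple pentamer relatives (CATTC)n and (GAATG)n lie in blocks around centromeres or on the short arms of acrocentric chromosomes. Such repeats are largely silenced in normal cells, and their transcription in tumours is a known phenomenon. Each locus is an interval annotated in the hg19 build, with a chromosome, a start, an end and a strand. In hg19 the centromeric arrays are assembled only in part, so the length of a locus is the length in that build, not that of the array in SW620 cells. The strand is that of the annotation, not of the reads.

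Each count of a read at a locus is a hit, and levels are in RPM, hits per 1000000 reads of the library. Which reads make up a library total is not given. As recovered from the RPM values, the totals were 1077925 reads for the xenograft and 157326 for the culture before, a depth ratio of 6.85. A single hit was therefore worth 0.928 RPM in the xenograft and 6.36 RPM in the culture before, and a locus with 0 hits could hold up to 2.78 and 19.1 RPM, taking 3 reads as the limit. Ratios are xenograft over culture before, with 95% exact conditional binomial (Clopper-Pearson) intervals. Against 0 hits a ratio is a bound, computed with 3 reads in that library and written as "at least", with the lower 95% limit beside it. These intervals cover counting error only, and they are too narrow where a read was counted at several loci.

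Over all loci the ratio was 14.5 (13.5 to 15.5), with 78581 hits in the xenograft versus 793 in the culture before. In bulk RNA, fewer cells that carry a transcript and less of it per cell cannot be told apart. The hits were also less evenly spread in the xenograft. There 27 loci held 50% of all hits, against 95 loci in the culture before, and the 6 highest loci held 27.5% of the hits in the xenograft versus 10.2% in the culture before. Locus by locus, log2(RPM + 5) values were compared where either library reached 20 RPM, a scale that understates the difference of low loci. Of 377 such loci, 336 (89.1%) were at least 2-fold higher and 4 (1.06%) at least 2-fold lower in the xenograft, with a median log2 ratio of 2.98. Most of these loci, 337, reached 20 RPM through the xenograft alone, and passing 2-fold is then favoured by the way they were picked. Of the 40 loci that reached 20 RPM in the culture before, 10 were 2-fold higher and 4 were 2-fold lower in the xenograft. Picking these 40 by their level in the culture before favours lower ratios, so neither count is free of selection.

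Among alpha satellites the ratio was higher at longer loci. The 21 alpha loci of 30000 bases and over had a ratio of 59.6 (43.8 to 83.5), and the 194 loci of 10 to 30 kb a ratio of 31.1 (26.1 to 37.2). The ratio was 10.4 (8.90 to 12.2) for 446 loci of 3 to 10 kb and 5.65 (4.05 to 8.15) for 370 loci of 1 to 3 kb. The 2 shortest classes, 155 loci of 300 bases to 1 kb and 115 loci under 300 bases, had ratios of 4.58 (1.92 to 14.3) and 3.94 (1.30 to 19.5) on 5 and 3 hits in the culture before. Between alpha loci of 10000 bases and over and shorter ones, the ratios were 37.9 and 9.35 and differed by a factor of 4.05 (3.28 to 5.0002).

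Set per length, this order was seen in the xenograft library. Per kb of alpha satellite, from the shortest to the longest class, the xenograft held 4.08, 1.58, 1.78, 4.24, 8.36 and 14.0 RPM. The same classes held 1.04, 0.346, 0.314, 0.408, 0.269 and 0.234 RPM per kb in the culture before. From 1000 bases upward the density in the xenograft was greater in each longer class, while that of the culture before stayed between 0.234 and 0.408. Across the 1301 alpha loci, Spearman's rho of length with RPM per kb was 0.409 in the xenograft versus 0.301 in the culture before, as a description of loci that share libraries and reads. Loci without a hit entered at 0. In the culture before these were 133 of 215 alpha loci of 10000 bases and over and 961 of 1086 shorter ones. A longer locus can thus rank higher by holding any hit, so rho does not measure the density of the classes. The same rho for DNA is given with the DNA libraries below. Among the 21 longest loci the xenograft had 5.57 RPM at the lowest, 249 at the median and 4266 at the highest, against 0, 6.36 and 95.3 RPM in the culture before, where 8 of the 21 had no hit. Among the 1086 alpha loci under 10000 bases these values were 0, 2.78 and 1923 RPM in the xenograft and 0, 0 and 50.8 RPM in the culture before.

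**Figure D1:**
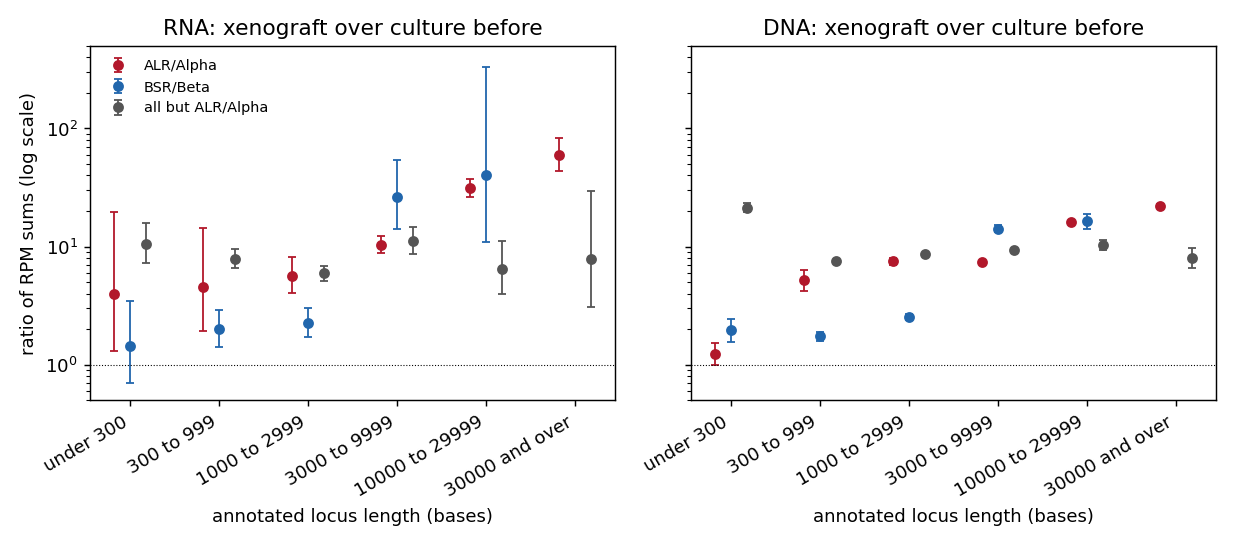
Ratio of xenograft to culture before by length class of the locus, in bases, on a log axis, for RNA (left) and DNA (right), with points for alpha satellite, beta satellite and all families but alpha, and bars for 95% counting intervals. In RNA the alpha ratio lies at 59.6 in the longest class and 3.94 in the shortest, and the beta ratio at 26.1 and 39.99 from 3000 bases upward and at 2.26 or below in shorter classes.

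The loci with the most xenograft RNA were long alpha loci. An alpha locus of 15003 bases that nearly fills an unplaced contig (Un_gl000226, 2 to 15004, plus strand) held 5295 RPM in the xenograft and 89.0 RPM in the culture before, a ratio of 59.5 (35.4 to 109). It alone took 7.26% of all xenograft hits. A pair of X alpha arrays followed. The one at chromosome X, 58544096 to 58582011 (plus), held 4266 RPM in the xenograft and 95.3 RPM in the culture before, a ratio of 44.7 (27.1 to 80.0). The one at chromosome X, 61682015 to 61736573 (minus), held 3984 RPM in the xenograft and 12.7 RPM in the culture before, a ratio of 313 (86.7 to 2588). The intervals of these X arrays did not overlap, although their xenograft levels were close.

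Length in hg19 did not by itself fix the level of a locus. The longest locus of the table, an alpha array of 160602 bases at chromosome 7, 61087754 to 61248355 (plus), held 153 RPM in the xenograft versus 0 in the culture before, at 0.953 RPM per kb in the xenograft. A random contig of chromosome 9 carried an alpha locus of 55477 bases (9_gl000198_random, 1775 to 57251, plus) with 5.57 RPM in the xenograft versus 0 in the culture before. By contrast, an alpha locus of only 5279 bases at chromosome 1, 121480151 to 121485429 (minus), held 1923 RPM in the xenograft and 19.1 RPM in the culture before, a ratio of 101 (34.5 to 489). At 364 RPM per kb it was the densest of the loci of at least 1000 bases with 20 RPM. Of 23 compared loci of 30000 bases and over, 21 were 2-fold higher in the xenograft, a share near the 89.1% over all compared loci, and 20 of the 23 had reached 20 RPM through the xenograft alone. The exceptions were an alpha array at chromosome 5, 46236256 to 46267469 (minus), with 26.9 RPM in the xenograft and 12.7 RPM in the culture before, and a CER satellite locus on Un_gl000224, 119727 to 179690 (plus), with 33.4 RPM in the xenograft and 19.1 RPM in the culture before. Their ratios, 2.12 (0.535 to 18.3) and 1.75 (0.553 to 8.89), had intervals that hold 1.

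**Figure D2:**
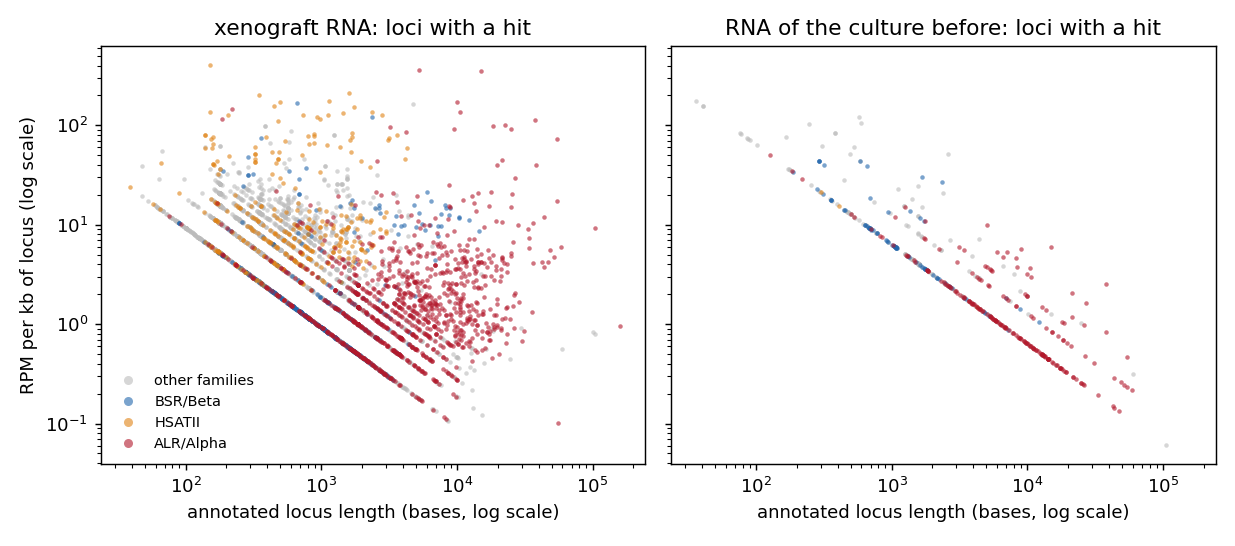
RPM per kb of each locus against its length in bases, both on log axes, in the xenograft (left) and the culture before (right), with 1 point per locus with a hit and alpha satellite, beta satellite and HSATII in their own colours. Parallel diagonals are loci with 1, 2, 3 and more hits, and the highest xenograft points are the HSATII locus of 151 bases at 405 RPM per kb and the alpha loci on chromosome 1 and Un_gl000226 at 364 and 353 RPM per kb.

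Outside alpha satellite the ratio did not follow length in the same way. The 8265 other loci had a ratio of 7.60 (6.90 to 8.39). Those of 10000 bases and over had a ratio of 6.73, against 7.65 for shorter ones, and the factor between them was 0.879 (0.564 to 1.44), an interval that holds 1. Families differed within this sum.

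Beta satellite, the repeat of acrocentric short arms and other pericentromeric blocks, divided at 3000 bases. Its 41 loci of 3000 bases and over had a ratio of 28.4 (16.2 to 55.1), and its 1943 shorter loci a ratio of 2.10 (1.71 to 2.60). The factor between them was 13.5 (7.38 to 27.2). The boundary was one of the length classes, chosen here after the classes had been seen. The long loci held 0 RPM at the lowest, 43.6 at the median and 135 at the highest in the xenograft, against 0, 0 and 12.7 RPM in the culture before, where 32 of the 41 had no hit. All 26 long beta loci that could be compared were 2-fold higher in the xenograft, against 89.1% over all compared loci. All 26 had reached 20 RPM through the xenograft alone, so nothing is read from this count.

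Of the 41 long beta loci, 19 lay on contigs outside the assembled chromosomes, 9 on chromosome 19, 4 on chromosome 7 and 4 on Y. The ratio of the long loci was 35.9 (17.4 to 89.3) on those contigs and 17.98 (7.66 to 55.6) on assembled chromosomes. Short beta loci differed by place as well. Those on contigs had a ratio of 32.1 (5.70 to 1274), with 220 hits in the xenograft versus 1 in the culture before, while those on assembled chromosomes had a ratio of 1.80 (1.46 to 2.23), with 1218 and 99 hits. Contig and length therefore overlap among beta loci, but the long ones had the higher ratio on assembled chromosomes too, by a factor of 10.01 (4.12 to 31.7). The long side of this factor rested on 616 hits in the xenograft versus 5 in the culture before. Of the 1900 short loci there, 1278 lay on Y and 374 on chromosome 19, so place was not held equal. The 4 longest beta loci had similar levels in the xenograft. The Y locus at 58983271 to 58997782 (minus) held 126 RPM in the xenograft versus 0 in the culture before, a ratio of at least 6.62 (lower 95% limit 5.31). The locus on Un_gl000216 at 145674 to 156080 (plus) held 122 RPM in the xenograft versus 0 in the culture before. Those on Un_gl000225 held 135 RPM in the xenograft and 12.7 RPM in the culture before at 10354 to 22564 (plus), and 124 RPM in the xenograft versus 0 in the culture before at 115786 to 126192 (minus).

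HSATII, a pericentromeric satellite, and its pentamer relatives were also set out by length. HSATII held 15.4, 18.5, 25.2 and 50.8 RPM per kb in the xenograft over its 4 length classes, from under 300 bases to the class of 3 to 10 kb, against 0, 0.127, 0 and 0.261 RPM per kb in the culture before. These HSATII values of the culture before rest on very few hits. The (GAATG)n loci held 5.02, 5.76 and 5.74 RPM per kb in the xenograft over their 3 classes, and the (CATTC)n loci 6.11, 5.37 and 5.68, with at most 3 hits per class in the culture before. Across single loci, Spearman's rho of length with xenograft RPM per kb was 0.326 for 399 HSATII loci, 0.222 for 1362 (GAATG)n loci and 0.142 for 1096 (CATTC)n loci, again as a description. Loci without a hit again entered at 0, with the limit given for alpha satellite. The shortest class of all satellites was led by an HSATII locus of 151 bases at chromosome 3, 196625625 to 196625775 (plus), with 61.2 RPM in the xenograft versus 0 in the culture before. Among HSATII loci of at least 1000 bases with 20 RPM, the densest was at chromosome 10, 42384182 to 42385776 (minus), with 336 RPM in the xenograft, 0 in the culture before and a ratio of at least 17.6 (lower 95% limit 14.2).

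Gamma, acrocentric and telomere-associated repeats had lower ratios than HSATII and the pentamers. GSATII, a gamma satellite, had ratios of 3.33 (2.10 to 5.58) at 3 to 10 kb and 3.004 (1.995 to 4.73) at 1 to 3 kb. ACRO1, a repeat of acrocentric short arms, had a ratio of 4.34 (2.98 to 6.57) at 1 to 3 kb. TAR1, a telomere-associated repeat, had a ratio of 0.762 (0.519 to 1.15) at 300 bases to 1 kb, an interval that holds 1. CER held 0.780, 0.709 and 0.756 RPM per kb in the xenograft in its 3 classes from 3000 bases upward, against 0.180, 0.110 and 0.0954 in the culture before. Its ratios in these classes were 4.34 (1.65 to 16.2), 6.42 (1.73 to 53.9) and 7.92 (3.05 to 29.3), with overlapping intervals.

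A hit was found at 4400 loci (46.0%) in the xenograft and at 455 loci (4.76%) in the culture before. The xenograft library was deeper, so the number of loci with a hit was also computed for a xenograft library reduced to the total of the culture before. That number was 1818 loci, 19.0% of all, still above the 455 of the culture before. At this matched depth the share of loci with a hit was 98.3% in the xenograft versus 62.5% in the culture before at 30000 bases and over, and 6.67% in the xenograft versus 0.660% in the culture before under 300 bases. At 1 to 3 kb the shares were 26.8% in the xenograft versus 8.44% in the culture before.

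**Figure D3:**
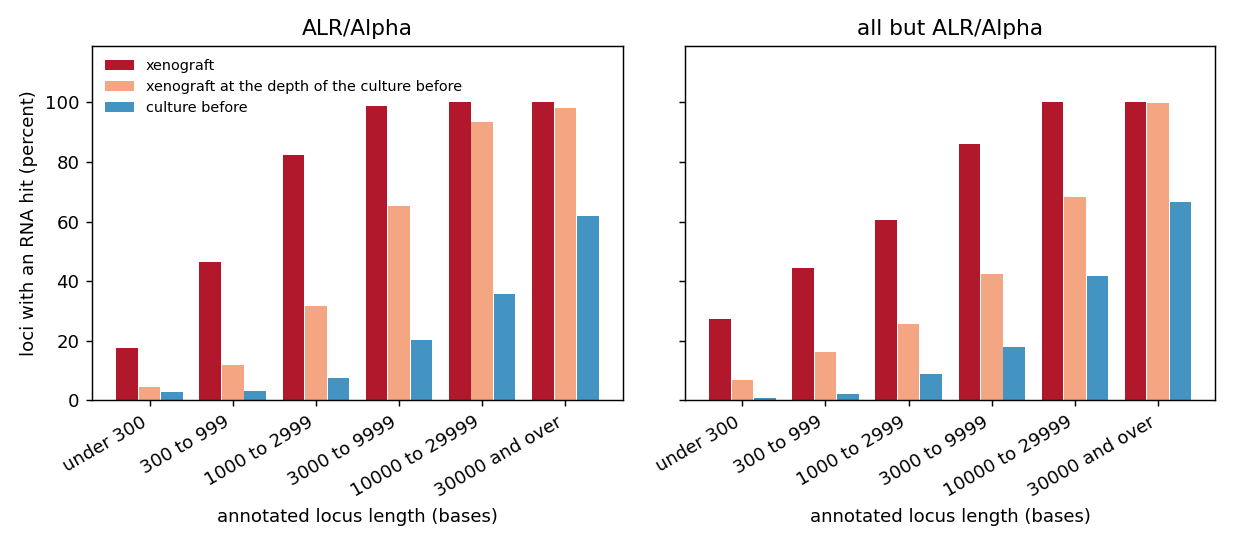
Share of loci with at least 1 hit, in percent, by length class in bases, for alpha satellite (left) and the other families (right), with bars for the xenograft as sequenced, the xenograft at the depth of the culture before, and the culture before. Over all families the shares under 300 bases were 26.96%, 6.67% and 0.660%.

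By annotated strand, the 6038 plus loci had a ratio of 16.2 (14.8 to 17.9) and the 3528 minus loci a ratio of 12.3 (11.1 to 13.7), which differ by a factor of 1.32 (1.14 to 1.52). Without the highest locus of each strand the ratios were 14.8 and 10.6 and the factor was 1.40 (1.21 to 1.62). Plus loci made up 54.2% of the annotated length and held 62.2% of the hits in the xenograft versus 55.5% in the culture before. The difference was seen within alpha satellite, with ratios of 24.96 (21.8 to 28.7) on plus and 18.6 (15.9 to 21.8) on minus loci and a factor of 1.34 (1.09 to 1.66). Per kb, plus alpha loci held 8.61 RPM in the xenograft and 0.345 RPM in the culture before, and minus alpha loci held 5.37 RPM in the xenograft and 0.289 RPM in the culture before. Over the other families the factor was 1.18 (0.963 to 1.43), an interval that holds 1.

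The strand difference of alpha satellite was not the same at every length. The plus ratio was the higher at 3 to 10 kb, 12.4 (9.94 to 15.7) against 8.51 (6.86 to 10.7) on minus loci, and at 10 to 30 kb, 36.1 (29.1 to 45.4) against 22.1 (16.5 to 30.2) on minus loci. It was the lower at 30000 bases and over, 44.6 (30.9 to 67.2) against 94.6 (54.1 to 183) on minus loci, and at 1 to 3 kb, 3.76 (2.38 to 6.29) against 7.91 (4.84 to 13.9) on minus loci. The minus value of the longest class rested on 9 loci and 12 hits in the culture before. The X array at 61682015 supplied most of its xenograft hits, and without that array the value was 50.8. Long alpha loci had the higher ratio on both strands, by factors of 3.66 (2.76 to 4.84) on plus and 4.49 (3.22 to 6.31) on minus between 10000 bases and over and shorter loci.

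Of 16 families with a value on both strands, alpha satellite was the one with a plus-to-minus factor above 1 by its interval and ACRO1 the one below. ACRO1 had a ratio of 2.68 on plus loci, with 330 hits in the xenograft versus 18 in the culture before, and 6.10 on minus loci, with 585 and 14 hits, a factor of 0.439 (0.199 to 0.948). Several ACRO1 loci on chromosome 4 held 39 hits each in the xenograft and 1 each in the culture before. Reads may have been counted at more than 1 of them, so the ACRO1 interval may be too narrow. The intervals of the other 14 hold 1, among them beta satellite at 1.15 (0.771 to 1.73). No such factor could be formed for the pentamers, since all 1096 (CATTC)n and all 1362 (GAATG)n loci are annotated on the plus strand.

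**Figure D4:**
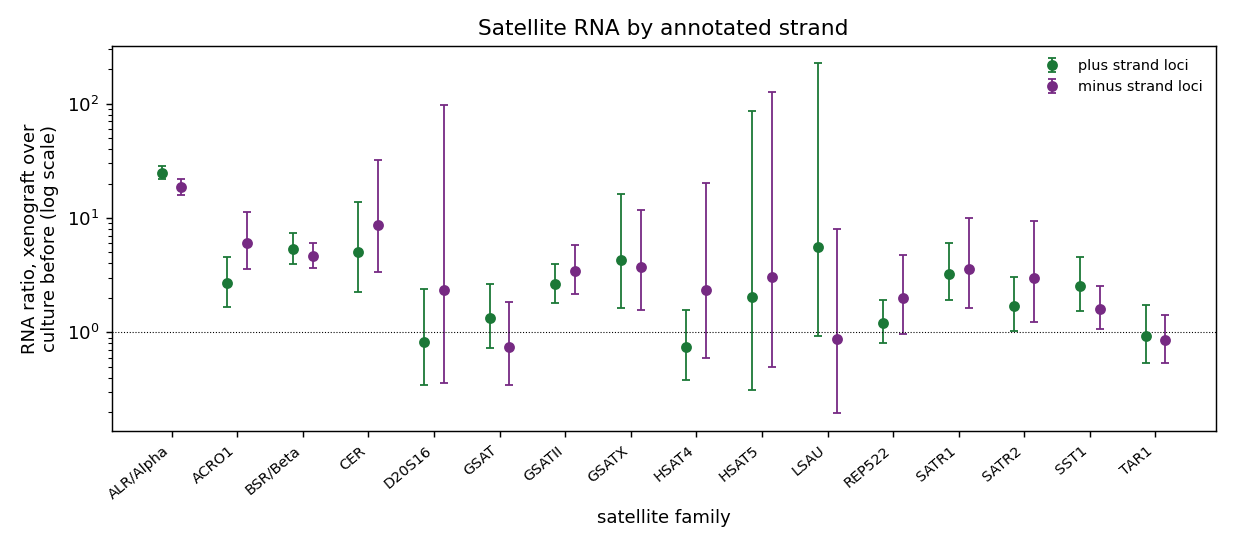
Ratio of xenograft to culture before on plus and minus loci, on a log axis, for the 16 families with a value on both strands, with bars for 95% counting intervals. Alpha satellite lies at 24.96 on plus and 18.6 on minus loci, ACRO1 at 2.68 and 6.10, and the intervals of the other 14 families overlap.

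By chromosome, satellite RNA was higher in the xenograft in 24 of 25 groups, counting the contigs outside the assembled chromosomes as a group, as judged by intervals above 1. The exception was chromosome 13, at 3.21 (0.838 to 27.3) on 44 hits in the xenograft versus 2 in the culture before. Set against all other loci, the ratio was higher on chromosomes 2, 10, 16, 18 and X and on the contigs, and lower on chromosomes 9, 12, 19, 21, 22 and Y, with intervals that hold 1 for the other 13 groups. Chromosome 10 had the ratio 163 (69.8 to 502), chromosome 18 had 88.7 (24.5 to 734) and chromosome 2 had 45.2 (27.8 to 79.2). These rested on 5, 2 and 16 hits in the culture before. The value was 30.8 (23.3 to 41.7) on chromosome X, 27.9 (21.5 to 36.7) on the contigs and 21.7 (15.6 to 31.0) on chromosome 16. The lower end held chromosome 22 at 3.14 (2.14 to 4.81), chromosome 9 at 4.67 (3.60 to 6.18), chromosome 19 at 5.35 (4.45 to 6.50) and chromosome Y at 5.39 (4.24 to 6.97). Most culture before hits of chromosome 22 lay at a REP522 locus at 22477210 to 22479804 (plus). It held 89 hits in the xenograft versus 21 in the culture before. The chromosome 22 ratio without this locus was not computed.

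A single locus weighed on several of these values. Leaving out the locus with the most xenograft hits gave 6.12 for chromosome 1, against 21.1 with it, and 3.20 for chromosome 17, against 9.96 with it. On chromosome 18 the ratio without it was 39.4, on the contigs 17.8, on chromosome 15 2.07 against 4.93 with it, on chromosome 19 3.16 and on chromosome 6 6.79 against 11.4 with it. On chromosome 20 it was 7.73 against 12.2 with it, and on chromosome 14 7.88 against 12.4. The locus with the most xenograft hits was an alpha satellite in 22 of the 25 groups, a CER locus on chromosomes 13 and 22 and the long beta locus on Y. On chromosome 17 it was an alpha array at 22241552 to 22263006 (plus), with 959 RPM in the xenograft and 44.5 RPM in the culture before, a ratio of 21.6 (10.4 to 53.8). On chromosome 18 it was an alpha locus at 18510902 to 18520342 (plus), with 878 RPM in the xenograft and 6.36 RPM in the culture before. On chromosome 19 it was an alpha locus at 27731785 to 27741731 (plus), with 1700 RPM in the xenograft (1832 hits) and 31.8 RPM in the culture before, a ratio of 53.5 (22.9 to 165).

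Chromosomes differed in which families lay behind the ratio. On chromosome 2 alpha satellite led, at 91.2 (41.8 to 249), and its arrays at 92274435 to 92312482 (plus) and 92315720 to 92326171 (plus) held 1527 and 1429 RPM in the xenograft, against 31.8 and 0 RPM in the culture before. The ratio of the array without a hit in the culture before was at least 74.9 (lower 95% limit 60.9). On chromosome 10 the other families led. They had 4355 hits in the xenograft versus 1 in the culture before, a ratio of 636 (114 to 25111), and HSATII gave 2878 of those xenograft hits and none in the culture before. On chromosome 16 the other families had a ratio of 49.4 (26.9 to 103), with 3237 HSATII hits in the xenograft versus 1 in the culture before. On the chromosomes at the lower end, loci other than alpha differed in their ratios. Chromosome 19 was at 1.88 (1.51 to 2.35) and chromosome 9 at 1.80 (1.34 to 2.46), while chromosome 22 was at 3.12 (2.12 to 4.78) and Y at 5.21 (4.03 to 6.85). The chromosome 22 value again includes the REP522 locus that held most of its culture before hits. For loci other than alpha, the interval holds 1 on chromosome 15, at 0.934 (0.361 to 3.07), on chromosome 6, at 1.27 (0.581 to 3.30), and on chromosomes 13 and X. Alpha satellite had an interval above 1 in 23 groups and the other families in 21.

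**Figure D5:**
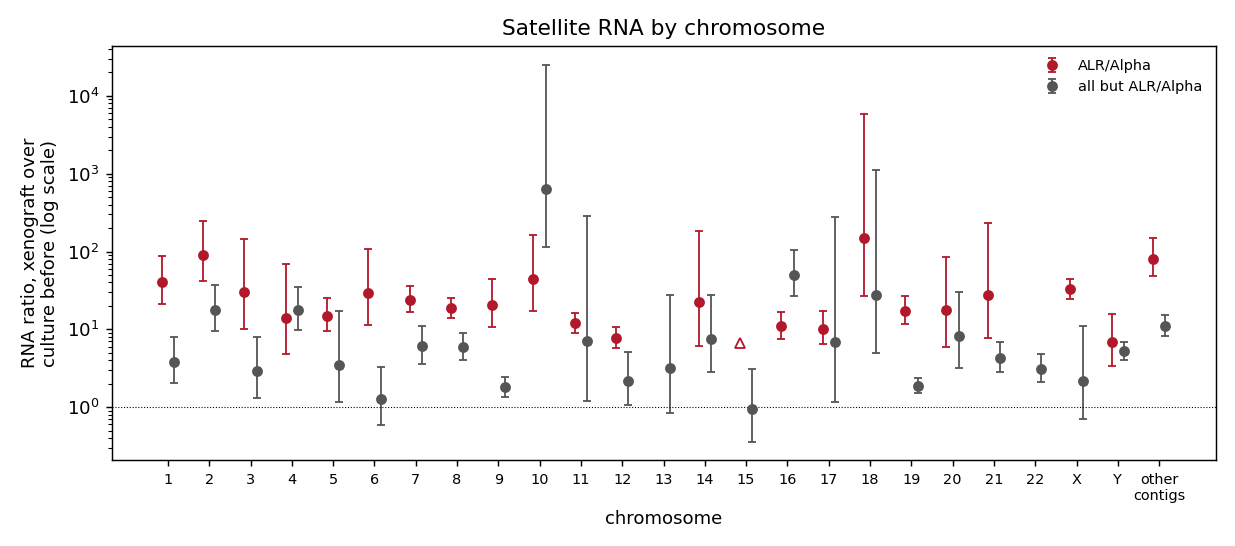
Ratio of xenograft to culture before by chromosome, on a log axis, for alpha satellite (red) and the other families (grey), with bars for 95% counting intervals and open triangles for lower bounds against 0 hits. Chromosome 10 stands highest among the other families at 636, and chromosomes 9 and 19 lie at 1.80 and 1.88.

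Distance to an alpha array gave a different picture by family, in a comparison added after the data had been seen. Loci within 1 Mb of an alpha locus of 10000 bases or more had a ratio of 17.9 (16.4 to 19.6), against 8.69 (7.74 to 9.78) for all others, called far. A locus on a chromosome or contig without such an array was counted as far, whatever its true place. Within alpha satellite the factor between near and far loci was 1.38 (0.945 to 1.96), and over the other families it was 0.990 (0.809 to 1.22), so both intervals hold 1. Beta satellite was lower near such arrays, at 2.41 near and 6.31 far, a factor of 0.382 (0.254 to 0.583). Its far loci include those on Un_gl000216 and Un_gl000225. Beta loci on contigs had the higher ratios given above, so distance and contig were not separated for this family. ACRO1 was also lower near, at 0.941 near and 5.44 far, a factor of 0.173 (0.0732 to 0.446). The limits given for ACRO1 by strand hold here too, and its chromosome 21 locus is among the near ones. REP522 went the other way, at 3.36 near and 1.05 far, a factor of 3.19 (1.17 to 10.8). The REP522 locus on chromosome 22, with 89 hits in the xenograft versus 21 in the culture before, is a far locus. It held most of the far culture before hits of this family. The factor without it was not computed, so a difference by distance is not read from REP522.

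DNA of the same loci was sequenced from the xenograft and from the culture before, and its ratios are set beside those of RNA. Satellite hits were 9.88% of the DNA reads in the xenograft versus 0.854% in the culture before. For RNA these shares were 7.29% and 0.504%. For alpha satellite, DNA ratios from the shortest to the longest class were 1.23, 5.16, 7.49, 7.36, 16.1 and 22.02, and for beta satellite 1.96, 1.73, 2.55, 14.2 and 16.3. The DNA ratio was 13.1 on plus and 9.73 on minus loci. For DNA of alpha loci, Spearman's rho of length with RPM per kb was 0.389 in the xenograft versus 0.472 in the culture before. With the xenograft first, it was 0.356 and 0.326 for HSATII, 0.248 and 0.296 for (GAATG)n, and 0.170 and 0.207 for (CATTC)n. These are descriptions with the limit given for RNA. A positive rho of length with density was thus not particular to RNA of the xenograft. Over the 25 chromosome groups Spearman's rho between RNA and DNA ratios was 0.81, as a description of groups that share libraries. Within the xenograft, RNA and DNA levels also lay close at single loci. Among the 372 loci with 20 RPM or more of xenograft RNA, the RPM of RNA over that of DNA had a median of 0.827 and quartiles of 0.650 and 1.01, and 308 loci were within 2-fold of parity. Spearman's rho between RNA and DNA over these loci was 0.843 in the xenograft versus 0.420 in the culture before, where most of them had few hits. The levels lay closest at alpha satellite, where 209 of 218 loci were within 2-fold of parity in the xenograft. There the median was 0.872 and rho 0.932. Of the 154 loci of other families 99 were within 2-fold, with a median of 0.649 and a rho of 0.737. The locus on Un_gl000226 held 5295 RPM of RNA and 6527 RPM of DNA in the xenograft, and the first X array 4266 RPM of RNA and 5744 RPM of DNA. Removal of DNA from the RNA is not described in the labels. The part of DNA, as template or as carry-over, in these RNA ratios was not tested.

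At some loci RNA and DNA parted. GSATII RNA was higher in the xenograft, by the ratios above, while its DNA ratios were 0.988 (0.904 to 1.08) at 3 to 10 kb and 1.04 (0.951 to 1.14) at 1 to 3 kb. A beta satellite at chromosome 19, 22073355 to 22075704 (minus), held 283 RPM of RNA in the xenograft and 63.6 RPM in the culture before, a ratio of 4.45 (2.39 to 9.38), and its DNA ratio was 0.949 (0.845 to 1.07). Conversely, a SATR2 locus at chromosome 19, 9301347 to 9301946 (plus), held 52.9 RPM of RNA in the xenograft and 63.6 RPM in the culture before, a ratio of 0.832 (0.421 to 1.83), while its DNA ratio was 18.2 (10.6 to 33.9). A TAR1 locus at chromosome 9, 42805767 to 42806343 (minus), held 39.0 RPM of RNA in the xenograft and 69.9 RPM in the culture before, against DNA at 2.79 RPM in the xenograft and 198 RPM in the culture before.

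The loci highest in the culture before were few and mixed in family. The most hits of that library, 21, were at a REP522 locus at chromosome 22, 22477210 to 22479804 (plus), which held 82.6 RPM in the xenograft and 133 RPM in the culture before, a ratio of 0.619 (0.381 to 1.05). The 4 loci at least 2-fold lower in the xenograft came from 4 families. An alpha locus at chromosome 11, 51149337 to 51154429 (minus), held 21.3 RPM in the xenograft and 50.8 RPM in the culture before, a log2 ratio of -1.08. An HSAT4 locus at chromosome 16, 34918422 to 34926389 (plus), held 5.57 RPM in the xenograft and 25.4 RPM in the culture before, a log2 ratio of -1.53. An SST1 locus at chromosome 19, 36799317 to 36800883 (plus), held 14.8 RPM in the xenograft and 38.1 RPM in the culture before, and an ACRO1 locus of 245 bases at chromosome 21, 9829744 to 9829988 (plus), held 8.35 RPM in the xenograft and 25.4 RPM in the culture before. The alpha and SST1 loci also had less DNA in the xenograft, with DNA ratios of 0.398 (0.286 to 0.545) and 0.207 (0.127 to 0.322). The RNA ratios of these 4, and of all 10 loci with the lowest log2 ratios, have intervals that hold 1, so a lower level at these loci was not detectable at this depth. Of the 10 highest log2 ratios, 6 had no hit in the culture before. They were led by an alpha array at chromosome 8, 43816164 to 43838878 (plus), with 2291 RPM in the xenograft versus 0 in the culture before, a ratio of at least 120 (lower 95% limit 97.7).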

How the data were processed

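SW620 satellite RNA was compared between 1 xenograft library and 1 library of the culture before. The authors deposited 1 table in RPM with a row per satellite locus, whose names give family, chromosome, start, end and strand, in hg19 per the submitters' processing notes. Not given are the aligner and the rules for strand, for reads with several matches and for mouse reads, as far as the sources used here go. The reads counted in the library totals are not given either, and every ratio depends on them. All columns could be assigned to a sample (0 were not).

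The deposited RPM gave back whole reads, since 100% of the values above 0 were multiples of the smallest one to within 0.01 reads. Library totals, sums of RPM over loci and RPM per kb were computed from these. Loci were pooled by 6 length classes, annotated strand, and 25 groups of chromosomes, within families of at least 20 loci. The factor between 2 ratios carries an exact 95% interval on the same counts. Named were the locus with the most xenograft hits on each chromosome, strand and length class, the 10 with the most hits in the culture before, the 10 highest and 10 lowest log2 ratios at 20 RPM in either library, the 3 densest, and members of counts of 5 or fewer. All loci of 30000 bases and over and beta loci of 10000 bases and over were added after their values were seen. The rules and groupings were chosen with earlier results of these data known. Over the 6 libraries, 26.97% of loci with at least 5 hits had the same values as another locus of their family, and they held 2.50% of xenograft hits. With at least 20 hits, a cut added later, these shares were 7.33% and 1.38%. A read with several matches may therefore count at each. Loci that share only part of their reads are not in these shares.

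Alternatives were TMM (edgeR 4.0.16) and size factors (DESeq2 1.42.0) over satellite loci, totals without satellite hits, other pseudocounts and minimums, an exact test on the reads (conditional binomial, Benjamini-Hochberg adjustment), identical loci counted once, and leaving out the top locus. Scripts, tested on simulated data, used Python 3.11.15 (pandas 2.3.3, SciPy 1.17.1, matplotlib 3.10.9, NumPy 2.4.6) and R 4.3.3. Sequences were not used here.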

Additional observations from a re-analysis of the deposited data

Results flagged for a closer look

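Signal appeared in libraries that the comparison does not use. RNA of the culture after the xenograft held 2.59 times (2.39 to 2.80) the satellite RNA of the culture before, over all loci. DNA of the culture after the xenograft held 12.2 times (12.0 to 12.3) the satellite DNA of the culture before.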

How the results depend on the processing

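No paired analysis was possible because each group has 1 library. The count of loci 2-fold higher in the xenograft, 336, became 556 with a minimum of 10 RPM, 169 with 50 RPM and 1014 with no minimum, and 165 loci passed the exact conditional binomial test on reads, which compares these libraries and not the conditions. The count 2-fold lower, 4, became 10 with TMM, 16 with size factors, 1 with a pseudocount of 10 RPM, 19 with a minimum of 10 RPM, 1 with 50 RPM, 83 with no minimum and 0 by the count test. TMM moved the log2 of a ratio of plain RPM by -0.17, size factors by -0.51 and totals without satellite hits by 0.10. With 5 RPM added, the move differs from locus to locus. The ratio over all loci, 14.5, was 12.8 with TMM and 10.2 with size factors. With size factors the length classes, from under 300 bases upward, had ratios of 6.96, 5.41, 4.13, 7.45, 19.8 and 38.5. Plus loci had 14.4 with TMM and 11.4 with size factors, and minus loci 10.9 and 8.62, or 10.6 without their highest locus. The factor between the longest and the shortest class, 5.53, was 2.63 with 5 classes of equal numbers of loci and 15.1 in alpha satellite alone. The plus-to-minus factor, 1.32 over all families, turned direction in ACRO1 (0.439), CER (0.577), D20S16 (0.354), GSATII (0.766), HSAT4 (0.318), HSAT5 (0.667), REP522 (0.611), SATR1 (0.906) and SATR2 (0.570), of which ACRO1 alone has an interval below 1. It was 1.79 in GSAT, 6.33 in LSAU, 1.58 in SST1 and 1.09 in TAR1, with intervals that hold 1. On chromosome 15 the ratio without alpha satellite turned direction, at 0.934. Among the loci named, size factors put 5 past 2-fold that were not and took 2 below it, and a pseudocount of 10 RPM took 5 below it. The causes were not tested. Depth of the culture before limits these results: its 793 hits leave most loci at 0, and 19.1 RPM at a single locus could go unseen.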
